A study of Mus musculus with 3 samples.

Results

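The calcium store and entry genes are 10 genes whose proteins sense calcium in internal stores, release it, refill the stores or move calcium across the plasma membrane. The 10 genes are *Stim1*, *Stim2*, *Orai1*, *Itpr1*, *Itpr2*, *Itpr3*, *Atp2a2*, *Atp2a3*, *Atp2b1* and *Trpc6*. They were chosen by name and are 10 of the 22367 protein-coding genes of the annotation (GENCODE M1, mouse genome build mm9). Sequence reads were counted within 2 kb of the start of each gene, which is the 5′ end of its gene record. They were also counted in the territory of each gene, meaning the gene with 20 kb on either side, in bins of 400 bp. FLI1 reads exceeded input at least 2-fold around the starts of 8 of the 10 genes and of 25.2% of all genes. RUNX1 reads did so at 4 of the 10 and at 16.7% of all genes.

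The data come from 3 ChIP-seq libraries of mature megakaryocytes, the large bone marrow and fetal liver cells that release platelets. The cells were grown for 5 days with thrombopoietin from fetal livers of wild-type CD1 mice, labelled E15, and freed of other lineages with antibodies and an albumin gradient. One library holds DNA precipitated with an antibody against FLI1, another DNA precipitated with an antibody against RUNX1, and the third is input, chromatin that was not precipitated. All 3 groups share the strain, genotype and culture. Each antibody's library was made from DNA pooled from at least 3 precipitates. With 1 library per antibody the spread between precipitates was not measured, no test was made, and every interval given here covers counting error only. The labels and the methods differ on the embryonic day, on the library kit and on whether CD41 was among the depleting antibodies. They also differ on whether the input was sheared or digested with nuclease. The bearing of that difference on the ratios to input was not tested.

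The libraries differed widely in depth, with 62946422 FLI1, 3973856 RUNX1 and 21745220 input reads on the chromosomes used. The RUNX1 file holds far fewer reads than the study's supplement lists for this antibody, so its depth is that of the file and may not be that of the whole library. At these depths the genome-wide rate predicts 135 FLI1, 8.50 RUNX1 and 46.5 input reads in the 4 kb around a start, so FLI1 ratios were much better determined than RUNX1 ratios. FLI1 and input were thinned to the RUNX1 depth to compare read ends. Of RUNX1 reads on the plus strand, 43.6% had a minus-strand end 50 to 400 bp downstream. The share was 30.2% for FLI1 and 30.8% for input. If the RUNX1 excess comes from fragments counted at both ends, which was not tested, intervals that involve RUNX1 are too narrow. Thinning removed reads singly, which splits read pairs in FLI1 and input but not in RUNX1. The comparison therefore cannot show whether fragments of FLI1 or input were counted at both ends, and their intervals may be too narrow as well. Occupancy at starts of marker genes was measured as a check of the cell type, although occupancy is not expression. Of 8 megakaryocyte markers, 6 had FLI1 at least 2-fold over input, beside 25.2% of all genes, with *Itga2b* at 5.50 and *Pf4* at 4.25 but *Tubb1* at 1.57 and *Vwf* at 1.24. The same held for 1 of 5 erythroid, 1 of 6 granulocyte and monocyte, and 0 of 4 lymphoid markers. RUNX1 reached 2-fold at 1 of the 8 megakaryocyte markers, beside 16.7% of all genes, and at 0 of the others, so this count did not set the cell type apart. The median RUNX1 ratio was highest at the megakaryocyte markers, 1.64, beside 1.17 over all genes. It was 1.3998 at erythroid, 0.790 at granulocyte and monocyte, and 0.917 at lymphoid markers. The groups are small, and the megakaryocyte (0.931 to 2.37) and erythroid (0.995 to 1.77) ranges overlapped.

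Calcium is the switch that couples receptors for ADP, thrombin and collagen to shape change, granule release and integrin activation in megakaryocytes and platelets. Receptor signals produce inositol trisphosphate, which opens inositol trisphosphate receptors in the store membrane. STIM proteins sense the emptied store and open ORAI channels in the plasma membrane, while SERCA pumps refill the store and PMCA pumps expel calcium from the cell. FLI1 is a transcription factor of the ETS family, whose members bind sequences with a GGAA core, and RUNX1 is a Runt-domain factor. Both are required for normal megakaryocyte maturation.

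A bin was called enriched when it held at least 5 reads and at least 3 times the expected number, where the expectation was the depth-scaled input in the bin, the depth-scaled input over the 13 bins around it, or the average over the genome, whichever was largest. Distances of bins are those of their centres from the gene start. For FLI1, 41 was the smallest number of reads that could pass, and for RUNX1 it was 5. The summit of the strongest FLI1 bin of each territory is printed here with 50 bp on either side, since these are the places where FLI1 was most concentrated near each gene. *Atp2a2* had no enriched FLI1 bin and has no sequence here. The strongest bin in the territory of *Atp2a3* lay at the start of its neighbour *P2rx1*, so the strongest bin upstream of *Atp2a3* itself was added after its values were seen. All are on the plus strand of mm9, written 5′ to 3′, and capitals mark matches on either strand to the ETS letters (CCGGAAA, its variant CCGGAAG, and likewise CAGGAAA with its variant CAGGAAG) or to the RUNX letters (TGTGGT and its variant TGCGGT).
Stim1 intron, chr7:109486591-109486691: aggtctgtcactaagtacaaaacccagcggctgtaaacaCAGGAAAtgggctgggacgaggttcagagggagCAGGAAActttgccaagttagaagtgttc
Stim2 intron, chr5:54436919-54437019: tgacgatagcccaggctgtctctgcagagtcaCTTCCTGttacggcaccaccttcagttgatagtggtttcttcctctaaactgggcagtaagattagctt
Orai1 intron, chr5:123467632-123467732: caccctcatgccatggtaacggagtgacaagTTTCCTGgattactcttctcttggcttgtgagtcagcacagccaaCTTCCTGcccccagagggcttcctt
Itpr1 intron, chr6:108487066-108487166: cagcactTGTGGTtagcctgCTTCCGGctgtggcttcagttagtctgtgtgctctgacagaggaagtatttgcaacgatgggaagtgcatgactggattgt
Itpr2 intron, chr6:146170598-146170698: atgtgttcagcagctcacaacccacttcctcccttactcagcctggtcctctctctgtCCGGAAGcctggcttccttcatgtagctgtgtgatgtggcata
Itpr3 upstream, chr17:27193259-27193359: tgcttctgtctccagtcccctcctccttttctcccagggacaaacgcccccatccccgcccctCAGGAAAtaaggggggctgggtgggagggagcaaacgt
Atp2a3 upstream, chr11:72768978-72769078: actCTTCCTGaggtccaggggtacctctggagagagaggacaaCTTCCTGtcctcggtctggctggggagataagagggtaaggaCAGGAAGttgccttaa
Atp2a3 downstream, at P2rx1, chr11:72812416-72812516: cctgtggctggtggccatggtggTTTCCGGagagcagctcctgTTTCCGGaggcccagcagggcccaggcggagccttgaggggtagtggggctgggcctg
Atp2b1 upstream, chr10:98376931-98377031: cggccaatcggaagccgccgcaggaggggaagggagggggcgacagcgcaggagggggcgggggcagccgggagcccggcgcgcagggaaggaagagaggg
Trpc6 intron, chr9:8545377-8545477: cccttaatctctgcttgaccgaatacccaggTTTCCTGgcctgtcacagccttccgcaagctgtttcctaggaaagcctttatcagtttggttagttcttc
Of these 10 windows, 9 held at least 1 ETS match, and the *Atp2b1* window held none. The only RUNX match was TGTGGT in the *Itpr1* window, beside the ETS match CTTCCGG, which reads as CCGGAAG on the other strand. A match describes the letters and does not show that a factor sat on them.

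*Stim1* (chr7:109416338-109585362, plus strand) encodes the main store sensor of platelets. Within 2 kb of its start there were 328 FLI1, 8 RUNX1 and 47 input reads. FLI1 was 2.41-fold over input (95% interval 1.77 to 3.35), whereas RUNX1 was at 0.931 (0.380 to 1.99), the lowest RUNX1 ratio of the 10 genes. FLI1 reads there were split between bins at 538 bp upstream and 262 bp downstream of the start, with 79 and 82 reads. *Stim2* (chr5:54389762-54512296, plus strand) encodes a sensor that responds to smaller losses of store calcium. Its start held 261 FLI1, 14 RUNX1 and 48 input reads. The ratios of 1.88 (1.38 to 2.61) for FLI1 and 1.60 (0.813 to 2.94) for RUNX1 were both under 2-fold, and FLI1 was just outside the threshold. The only enriched FLI1 bin within the window lay off the start itself, in an intron 1638 bp downstream, with 71 reads.

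*Orai1* (chr5:123465083-123480459, plus strand) encodes the pore of the store-operated channel. Its start window held 292 FLI1, 19 RUNX1 and 39 input reads. Both factors were over 2-fold, with 2.59 (1.85 to 3.71) for FLI1 and 2.67 (1.46 to 4.73) for RUNX1. The bin over the start, centred 83 bp upstream, held 94 FLI1 and 4 RUNX1 reads and also lies within an intron of *Kdm2b* in the annotation. The strongest FLI1 bin of the gene was intronic, 2717 bp downstream, with 138 FLI1 and 0 RUNX1 reads.

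The 3 inositol trisphosphate receptors release calcium from the store. *Itpr1* (chr6:108163112-108501103, plus strand) had 281 FLI1, 13 RUNX1 and 53 input reads at its start. Its ratios were 1.83 (1.36 to 2.51) and 1.34 (0.671 to 2.50), and its FLI1 ratio was the lowest of the 10 genes in this window. The single bin over the start held 97 of the FLI1 reads. In a window of 1 kb on either side the ratios were 3.85 for FLI1 and 3.46 for RUNX1. *Itpr2* (chr6:146056821-146450745, minus strand) had 250 FLI1, 24 RUNX1 and 43 input reads, which was the highest RUNX1 count of the 10. RUNX1 was 3.05-fold over input (1.77 to 5.15) and FLI1 2.01-fold (1.45 to 2.84), just inside the threshold. In the 1-kb window RUNX1 was at 4.90 and FLI1 at 3.25. A bin 545 bp into the gene was enriched for both factors, with 93 FLI1 and 5 RUNX1 reads. *Itpr3* (chr17:27194249-27259168, plus strand) had 279 FLI1, 8 RUNX1 and 37 input reads. FLI1 was at 2.60 (1.84 to 3.78) and RUNX1 at 1.18 (0.476 to 2.58). In the 1-kb window, with 214 FLI1, 7 RUNX1 and 12 input reads, they were at 6.16 (3.45 to 12.1) and 3.19 (1.06 to 8.79). Its FLI1 reads were concentrated upstream, with 127 of them in a bin 849 bp before the start where the input had 0 reads.

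The SERCA pumps return calcium to the store. *Atp2a2* (chr5:122903531-122952183, minus strand) encodes the pump found in most cells. Its start held 174 FLI1, 19 RUNX1 and 29 input reads, the fewest FLI1 reads of the 10. Its ratios were 2.07 (1.39 to 3.19) for FLI1 and 3.59 (1.90 to 6.62) for RUNX1, and RUNX1 was at 5.89 in the 1-kb window. *Atp2a3* (chr11:72774671-72806546, plus strand) encodes SERCA3, a pump of platelets and other blood cells. It held 423 FLI1, 16 RUNX1 and 48 input reads, giving 3.04 (2.26 to 4.19) and 1.82 (0.967 to 3.27). FLI1 bins covered the start, with 82 reads, and an intron 729 bp downstream, with 147 reads.

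*Atp2b1* (chr10:98377786-98488777, plus strand) encodes the plasma membrane pump PMCA1. Its start held 212 FLI1, 18 RUNX1 and 21 input reads. It had the highest RUNX1 ratio of the 10 genes in this window, 4.69 (2.36 to 9.25), though not in the 1-kb window, where it was at 4.48 and below *Atp2a2* and *Itpr2*, and a FLI1 ratio of 3.49 (2.22 to 5.75). Input was sparse here, at 0.451 of its genome-wide rate, and also at *Atp2a2*, at 0.623. Against the genome-wide rate of the same library instead of the input, FLI1 was 1.57 at *Atp2b1* and 1.29 at *Atp2a2*, while RUNX1 was 2.12 and 2.23. By that measure *Itpr2* had the highest RUNX1 value of the 10, 2.82, and *Atp2b1* lay below *Itpr2*, *Orai1* and *Atp2a2*. These starts had the highest GC content of the 10, 76.7% and 77.9% within 500 bp, against 58.3% to 70.3% in the others and a median of 54.9% over all genes. The part of base composition in the sparse input was not tested.

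*Trpc6* (chr9:8544432-8680565, plus strand) encodes a diacylglycerol-gated cation channel of the plasma membrane. Its start window held 440 FLI1, 14 RUNX1 and 40 input reads, the most FLI1 reads of the 10. FLI1 was 3.80-fold over input (2.75 to 5.39), the highest of the set in this window, and RUNX1 was 1.92-fold (0.962 to 3.60). In the 1-kb window FLI1 was at 3.95, below *Itpr3* and *Atp2a3*. A single intronic bin 968 bp downstream of the start held 232 of the FLI1 reads and 2 RUNX1 reads. At 17.2 times the expected number it was the strongest FLI1 bin in any of the 10 territories.

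**Figure D1:**
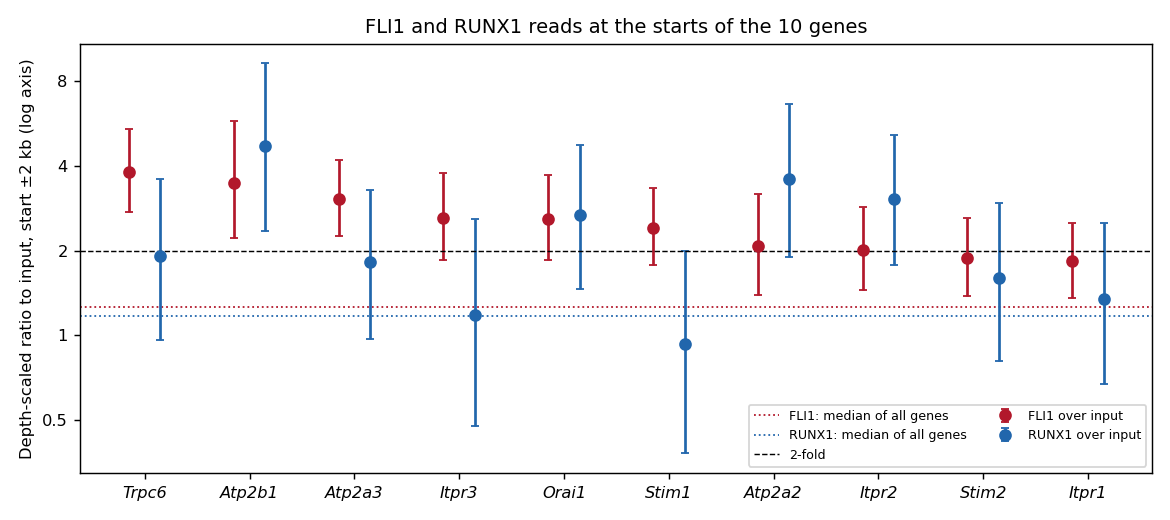
Depth-scaled ratio of FLI1 (red) and RUNX1 (blue) reads to input within 2 kb of the start of each of the 10 genes, on a log axis, with exact 95% intervals for counting error; dotted lines give the medians of all genes and the dashed line 2-fold. FLI1 ratios run from 3.80 at *Trpc6* to 1.83 at *Itpr1*, and RUNX1 ratios from 4.69 at *Atp2b1* to 0.931 at *Stim1* with wider intervals.

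In order of FLI1 ratio the genes were *Trpc6*, *Atp2b1*, *Atp2a3*, *Itpr3*, *Orai1*, *Stim1*, *Atp2a2*, *Itpr2*, *Stim2* and *Itpr1*. The intervals of all neighbours in this order overlapped, and so did those of all neighbours in the order of RUNX1 ratios. Those of *Trpc6* and *Itpr1* did not overlap in this window, but in the 1-kb window their ratios were 3.95 (2.52 to 6.50) and 3.85 (2.41 to 6.53). The order there was *Itpr3*, *Atp2a3*, *Trpc6*, *Atp2b1*, *Itpr1*, *Orai1*, *Itpr2*, *Stim1*, *Atp2a2* and *Stim2*. Against the genome-wide rate in the 2-kb window, FLI1 at *Atp2b1* was 1.57, below *Itpr1* at 2.09. The order therefore depended on the window and on the reference. At least 2-fold FLI1 was found at 8 of 10 genes, beside the 25.2% of all 21877 genes with input reads. At least 2-fold RUNX1 was found at 4 of 10, beside the 16.7% of all genes. The median FLI1 ratio was 2.50 over the 10 genes and 1.26 over all genes, and the median RUNX1 ratio 1.87 and 1.17. With all 10 windows summed there were 2940 FLI1, 153 RUNX1 and 405 input reads, or 2.51-fold (2.26 to 2.79) and 2.07-fold (1.71 to 2.50) over input.

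The counts over the threshold also depended on the window and the reference. In windows of 1 kb RUNX1 reached 2-fold at 8 of the 10 genes, all but *Stim1* and *Trpc6*, beside 29.0% of all genes. The RUNX1 intervals of *Stim2* (0.938 to 4.72) and *Orai1* (0.834 to 5.19) included equality there. FLI1 reached 2-fold at 9 in these windows, all but *Stim2*, beside 36.9% of all genes. Against the genome-wide rate FLI1 reached it at 6, with *Itpr1* in and *Itpr2*, *Atp2a2* and *Atp2b1* out, beside 17.1% of all genes. By the same reference RUNX1 reached it at 4, beside 5.64% of all genes, and the ratio of the summed windows was 1.80.

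**Figure D2:**
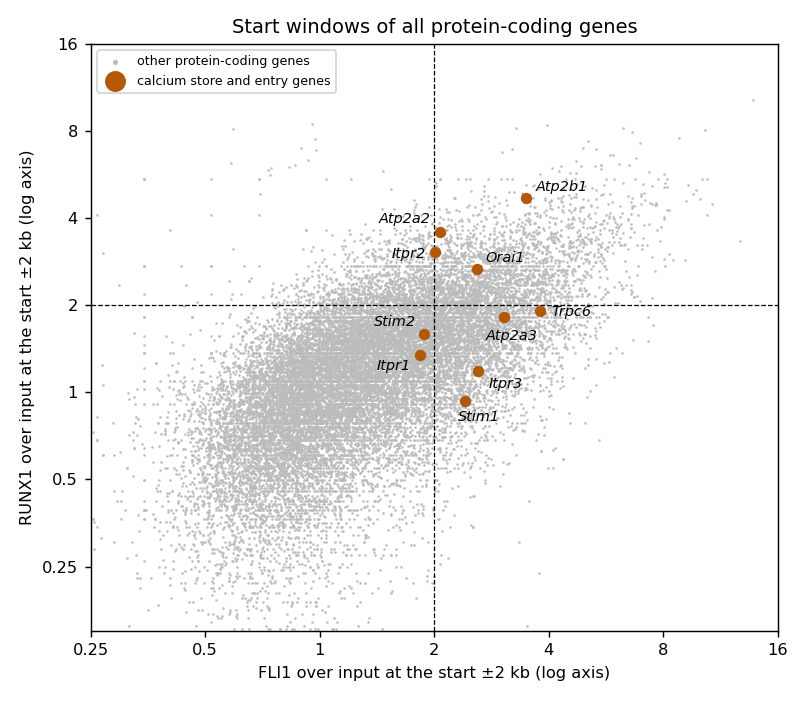
FLI1 over input (horizontal) against RUNX1 over input (vertical) within 2 kb of the start, both on log axes, for protein-coding genes with reads in all 3 libraries (grey) and the 10 calcium store and entry genes (orange); dashed lines mark 2-fold. *Orai1*, *Itpr2*, *Atp2a2* and *Atp2b1* are past 2-fold for both factors, and *Stim2* and *Itpr1* for neither.

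FLI1 and RUNX1 were also compared with each other, as a ratio of depth-scaled reads that leaves the input out. Scaled FLI1 reads were the more numerous at *Stim1* (2.59, 1.30 to 6.05), *Itpr3* (2.20, 1.10 to 5.15), *Trpc6* (1.98, 1.17 to 3.66) and *Atp2a3* (1.67, 1.02 to 2.95). Scaled RUNX1 reads were the more numerous at *Atp2a2* (0.578, 0.359 to 0.984). The intervals of the other 5 genes, whose ratios ran from 0.658 at *Itpr2* to 1.36 at *Itpr1*, included equality. Reads from 2 antibodies do not show which factor was the more abundant. Over genes with RUNX1 and input reads the median of this ratio was 1.15. The intervals of *Itpr3* and *Atp2a3* included that median, and those of *Itpr2* (0.432 to 1.05) and *Atp2a2* lay below it. These intervals may be too narrow, as stated for RUNX1, and the RUNX1 counts behind the ratios of *Stim1* and *Itpr3* were 8 reads each. In the 1-kb window the intervals of *Stim1*, *Trpc6* and *Atp2a2* still left out equality and those of *Itpr3* and *Atp2a3* included it. The *Stim1* value there, 13.95 (2.48 to 553.5), rested on 1 RUNX1 read. *Stim2* (1.18 and 0.783) and *Orai1* (0.970 and 1.55) lay on opposite sides of equality in the 2-kb and the 1-kb windows.

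Within the 4 kb the place of the highest FLI1 signal varied between the genes. In steps of 100 bp, the highest step lay from 100 bp upstream up to the start in *Itpr1* (42 FLI1 reads) and *Atp2a2* (20 reads), and from 200 bp upstream in *Orai1* (30 reads). It lay further upstream in *Itpr3*, from 1000 bp before the start (58 reads), and in *Atp2b1*, from 900 bp before it (31 reads). In the other 5 genes it lay downstream, from 300 bp in *Stim1* (47 reads), 600 bp in *Itpr2* (41 reads), 700 bp in *Atp2a3* (69 reads), 900 bp in *Trpc6* (97 reads) and 1500 bp in *Stim2* (37 reads). The input had at most 2 reads in any of these steps. Only protein-coding starts distant from the main one were read as alternatives, in *Itpr1* (39840 and 280149 bp downstream), *Itpr2* (105237 bp) and *Stim2* (105945 and 106845 bp). FLI1 over input was between 0.766 and 1.30 at these 5 starts, below the ratio at the main start in each of the 3 genes. RUNX1 over input was between 0.625 and 1.07 there. With the windows of all starts of a gene joined, *Itpr2* was at 1.72 for RUNX1 and 3 of the 10 genes reached 2-fold. FLI1 was then at 1.41 in *Itpr2* and 1.24 in *Itpr1*, and 7 of the 10 genes reached 2-fold. The share of all genes was not computed for joined windows.

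**Figure D3:**
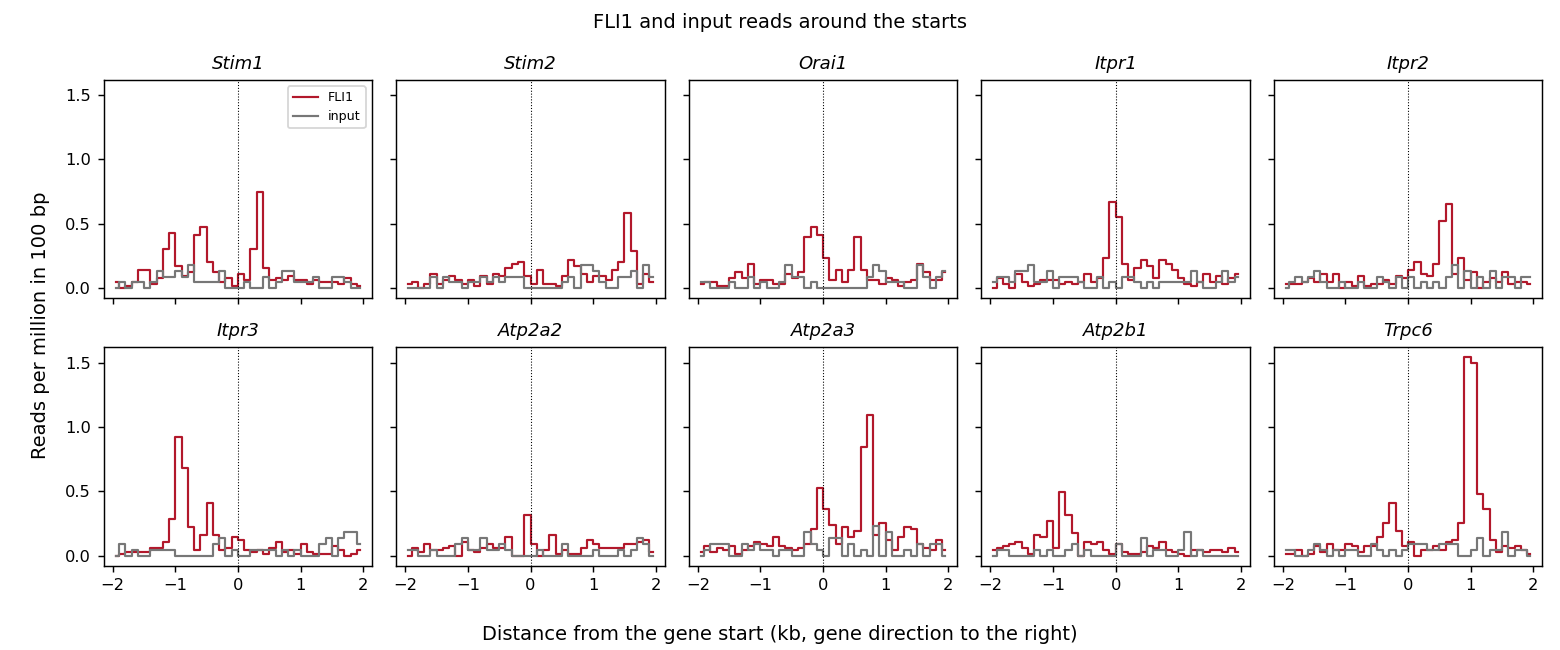
FLI1 (red) and input (grey) depth-scaled reads (RPM) in 100-bp steps within 2 kb of each start, with the gene running to the right and the start dotted. Peaks stand over the start in *Itpr1*, upstream in *Itpr3* and *Atp2b1*, and downstream in *Trpc6* and *Atp2a3*, and the *Atp2a2* profile reaches 20 reads in its highest step.

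Across whole territories both factors were close to the scaled input. The 10 territories together held 60111 FLI1, 3589 RUNX1 and 19934 input reads, so that FLI1 was at 1.04 (1.03 to 1.06) and RUNX1 at 0.985 (0.951 to 1.02) of the scaled input. With scaling on the 50% of 10-kb bins with the fewest reads FLI1 was at 0.938, so the side of input on which it lay depended on the scaling. *Atp2a3* had the highest FLI1 ratio, 1.56 (1.45 to 1.68), at the 98.6th percentile of all genes. *Itpr3* had the lowest, 0.702 (0.659 to 0.748), at the 9.83rd percentile, although its start was over 2-fold. Its RUNX1 ratio over the territory was as low, 0.696 (0.593 to 0.812). The large *Itpr1* and *Itpr2* territories, of 378 and 434 kb, were at 0.991 and 0.922 for FLI1.

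Enriched bins showed where in the territories the reads passed the threshold. For these territories the share of bins that counting error alone would bring past the threshold was not computed. Simulated bins at the genome-wide rate were put through the same rule as a test of the scripts, but their share is not reported here. A single RUNX1 bin, resting on few reads, is therefore not shown to be a bound site. Of 4577 bins, 57 (1.25%) were enriched for FLI1, where 0.646% of the bins of all gene territories were. For RUNX1 it was 30 bins (0.655%), beside 0.403% in all territories, and for both factors 9 bins (0.197%), beside 0.0723%. Adjacent FLI1 bins joined into 47 separate sites and adjacent RUNX1 bins into 28. Of the FLI1 bins, 14 lay within 2 kb of the start of one of the 10 genes, 7 within 2 kb of the start of another gene, and 36 further away, 27 of these in introns and 9 between genes. The RUNX1 bins were divided as 3, 4 and 23, with 19 of the distant ones in introns.

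*Stim1* had the most FLI1 bins, 13 of 522 (2.49%), though a smaller share than *Orai1* (3.62%) and *Atp2a3* (6.15%). Of the 13 bins, 4 lay at the neighbour *Rhog*, with bin centres from -18938 to -16938 bp of the *Stim1* start. Another lay at the start of *Rrm1* near the other end of the territory. The strongest was in an intron 70262 bp downstream of the *Stim1* start, with 151 FLI1, 0 RUNX1 and 4 input reads. An intronic bin at 50262 bp was enriched for both factors, with 133 FLI1, 5 RUNX1 and 7 input reads. *Stim2* had 4 FLI1 bins of 407, and the strongest, in an intron 47238 bp downstream, was enriched for both factors. It held 110 FLI1, 7 RUNX1 and 3 input reads, which was 8.17 and 8.24 times the expected FLI1 and RUNX1 reads.

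*Orai1* had 5 FLI1 bins of 138, of which 4 were at its start or in its introns and 1, with 116 FLI1 reads, was in an intron of *Morn3*. The only RUNX1 bin of the territory, with 5 reads, lay in *Morn3* as well. No bin of this territory was enriched for both factors.

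The strongest bin of the set enriched for both factors outside a neighbour's start was in *Itpr1*, in an intron 323888 bp downstream of the start. It held 220 FLI1, 11 RUNX1 and 6 input reads, 12.7 and 10.03 times the expected numbers, and its 11 reads were the most RUNX1 reads in any bin of the 10 territories. These fell as 7 on the plus and 4 on the minus strand. Its summit window is the one printed above with both an ETS and a RUNX match. *Itpr2* had 8 FLI1 and 9 RUNX1 bins of 1085, the most RUNX1 bins of any of the 10 genes but also the most bins. Its RUNX1 share of 0.829% was below those of *Atp2a3* (2.23%) and *Atp2b1* (1.59%). In *Itpr2* an intronic bin 331345 bp downstream was enriched for both, with 153 FLI1, 7 RUNX1 and 2 input reads. The strongest FLI1 bin of *Itpr2*, at 280145 bp, held 205 FLI1 but 3 RUNX1 reads. *Itpr3* had 3 FLI1 bins of 262, and its single RUNX1 bin lay within 2 kb of the start of *2900010M23Rik*.

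Among the SERCA genes, *Atp2a2* had 0 FLI1 bins of 221, and its strongest bin reached 2.30 times the expected number with 31 reads. Its single RUNX1 bin, with 5 reads, covered an exon 383 bp into the gene. *Atp2a3* had 11 FLI1 bins of 179, or 6.15%, the highest share of the 10 genes. Upstream of the start, a bin at 5671 bp held 371 FLI1, 2 RUNX1 and 9 input reads, the most FLI1 reads of any bin of the set, and a bin at 7271 bp held 172 FLI1 and 4 RUNX1 reads. Further upstream, 3 adjacent bins from 15271 to 14471 bp held 65, 115 and 109 FLI1 reads. The bin at the start of *P2rx1*, which encodes an ATP-gated cation channel of platelets, held 234 FLI1, 5 RUNX1 and 3 input reads. This bin and a neighbouring bin account for 2 of the 11 FLI1 bins. Of the 3 bins enriched for both factors in this territory, 1 lay at the *P2rx1* start and the others at 15271 and 6871 bp upstream of *Atp2a3*.

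*Atp2b1* had 2 FLI1 bins of 378, at 786 bp upstream with 65 reads and at 16786 bp upstream with 60 reads. It had 6 RUNX1 bins, all with 5 to 7 RUNX1 reads, and none coincided with a FLI1 bin. *Trpc6* had 4 FLI1 bins of 440, 3 around its start and 1 past the end of the gene, 148968 bp from the start, which was enriched for both factors with 114 FLI1, 6 RUNX1 and 7 input reads.

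**Figure D4:**
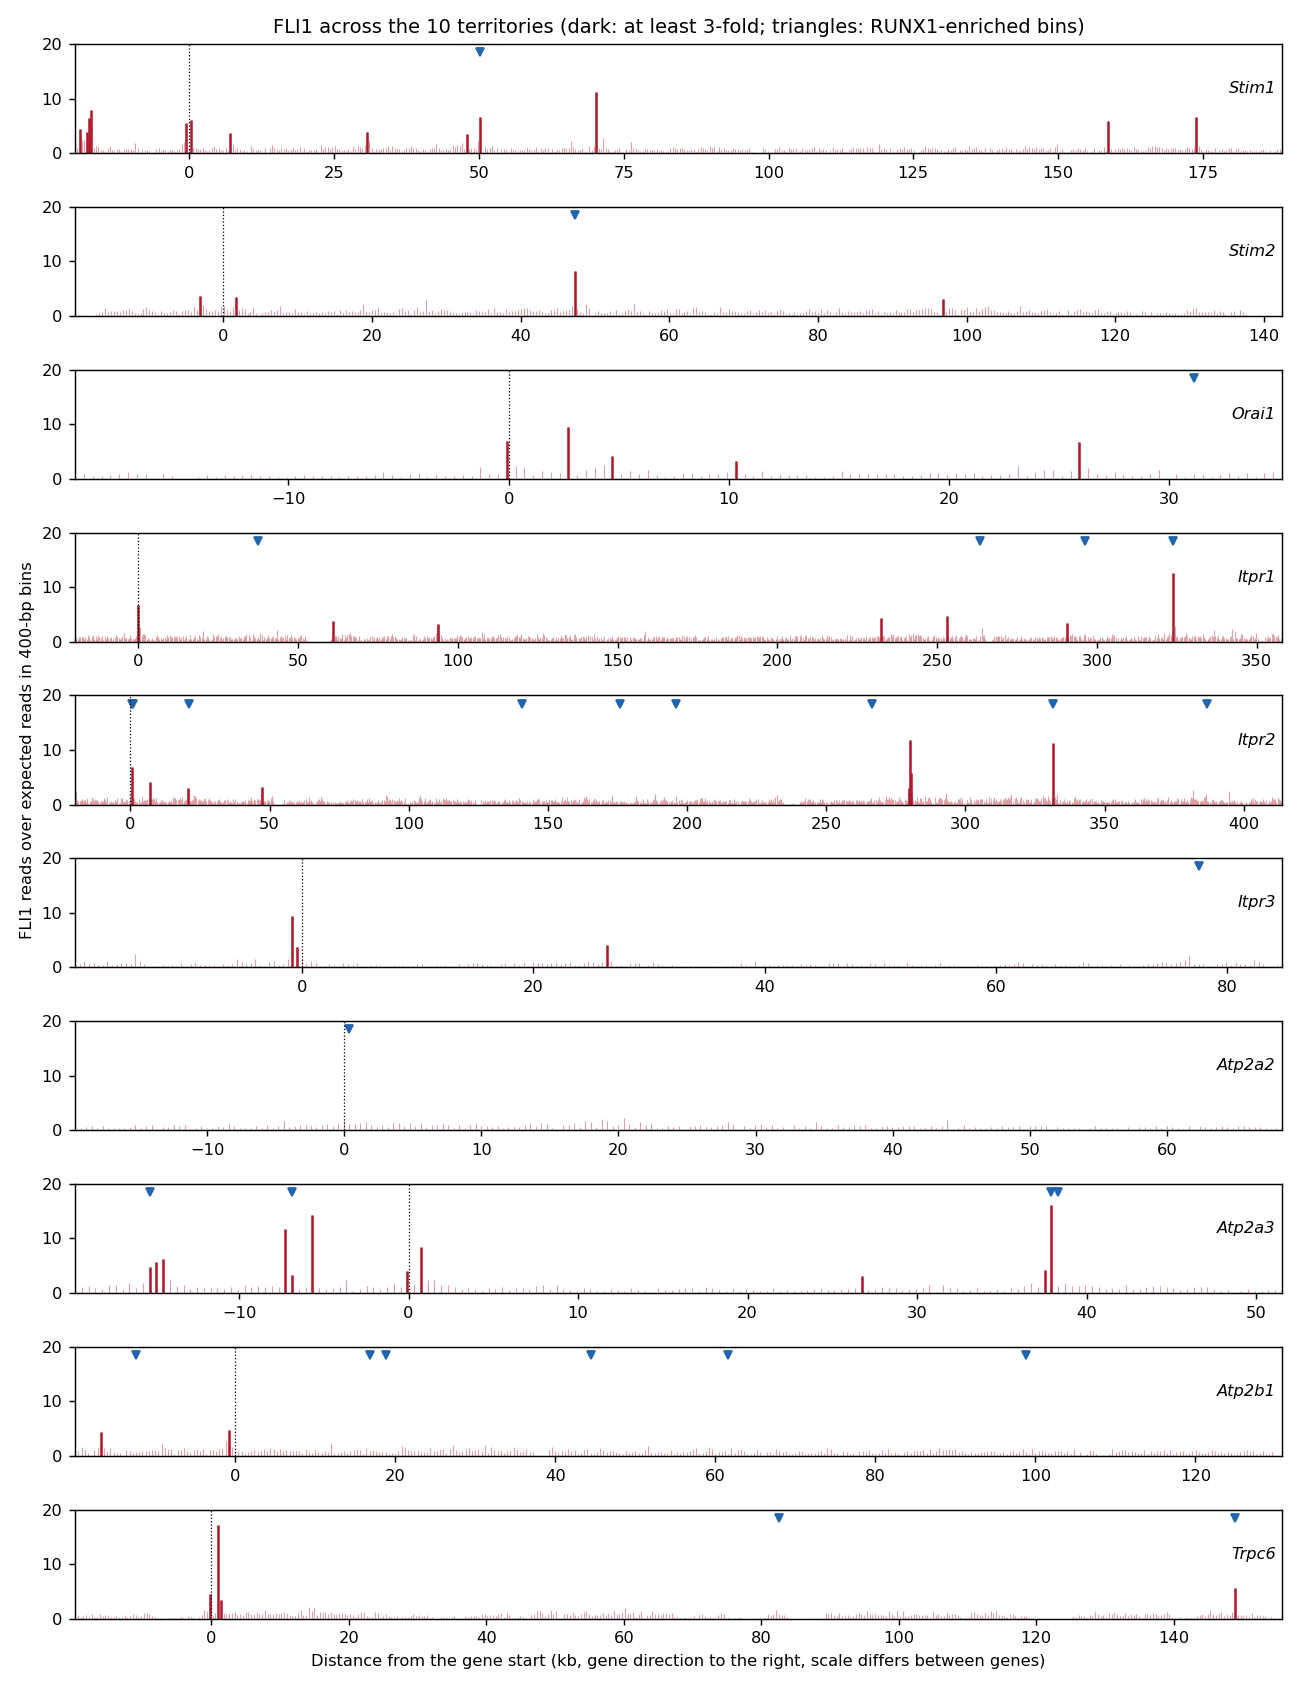
FLI1 reads over the expected number in 400-bp bins across the 10 territories, by distance in kb from the start with the gene running to the right; dark bars are enriched FLI1 bins, blue triangles enriched RUNX1 bins, and the distance scale differs between genes. Dark bars reach 17.2 in *Trpc6*, are most frequent for their length in *Atp2a3*, and are absent from *Atp2a2*.

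The RUNX1 calls rested on few reads, 5 to 7 in the 21 bins enriched for RUNX1 alone and 5 to 11 in the 9 bins enriched for both. For these territories, how many of the 30 bins would reach 5 reads by counting error alone was not computed. If both ends of some fragments were counted, a bin of 5 reads holds fewer fragments than reads and fewer bins would pass, which was not tested for the 30 and 9 bins. RUNX1 reads were therefore also summed over the bins chosen by FLI1, which needs no RUNX1 threshold. The 57 FLI1 bins held 131 RUNX1 reads, 2.30 per bin, whereas the other 4520 bins held 3458, or 0.765 per bin. RUNX1 was 2.89-fold over input (2.32 to 3.59) in the first and 0.961 (0.927 to 0.997) in the second. The ratio was 3.22 (1.98 to 5.15) in the 14 FLI1 bins within 2 kb of the member's start and 2.81 (2.18 to 3.58) in the 43 further away, so that RUNX1 reads accompanied FLI1 bins at both. Over the territories of all genes the corresponding values were 2.90 in FLI1 bins and 0.946 in the rest, close to those of the calcium genes.

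**Figure D5:**
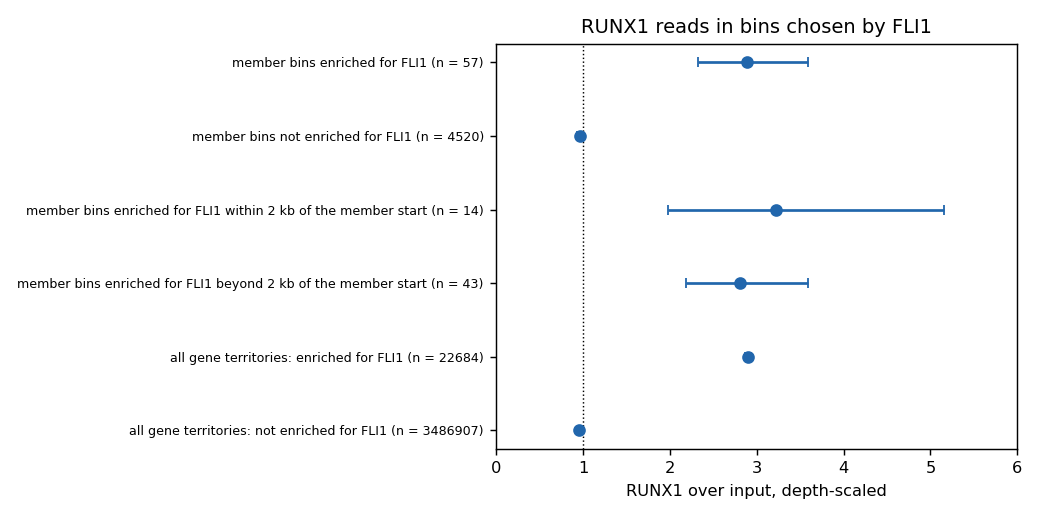
RUNX1 over input, depth-scaled, in bins grouped by whether they were enriched for FLI1, with exact 95% intervals for counting error, which are narrower than the points in the largest groups. The 57 FLI1 bins of the 10 territories sit at 2.89 and the other bins at 0.961, beside 2.90 and 0.946 for all gene territories.

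The letters around the summits were counted in all 57 FLI1 bins. These bins form 47 sites, and windows of some adjacent bins overlapped. The same match can therefore be counted more than once, and the 57 windows are not all separate places. An ETS match was present within 50 bp of the summit in 35 of them (61.4%), where 54.4% of all FLI1 bins in gene territories and 7.03% of all territory bins, read around their centres, had one. The 10 windows printed above come from this group. A RUNX match was present in 9 (15.8%), beside 16.9% and 8.08%. The GATA letters (AGATAA and its variant TGATAA) were present in 9 (15.8%), beside 11.9% and 11.7%. Of these 9 bins, 5 were in the territory of *Atp2a3*, whose 11 FLI1 bins form 7 sites, so the 5 need not be separate places. The NF-E2 core (TGACTCA, on the other strand TGAGTCA) was present in 4 (7.02%), beside 4.03% and 1.62%. Over the whole 400 bp, a RUNX match was present in 6 of the 9 bins enriched for both factors and in 9 of the 21 enriched for RUNX1 alone, where 29.0% of all territory bins had one.

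Other genes of calcium handling were counted in the same start windows, as 41 genes in 6 groups. FLI1 was at least 2-fold over input at 13 of the 41, beside 25.2% of all genes, and RUNX1 at 7, beside 16.7%. The median FLI1 ratio of the 41 was 1.77. The groups are small, and their counts are given as a description. In store-operated entry, 0 of the 8 genes beside *Stim1*, *Stim2* and *Orai1* reached 2-fold FLI1, with a range from 0.804 at *Tmem110*, which encodes a STIM regulator, to 1.93. It was 2 of 9 in store release, led by *Itpkb* at 3.46, a kinase that phosphorylates inositol trisphosphate, and 1 of 8 among further pumps and exchangers. That last group held 3 of the 4 lowest values, *Atp2b3* at 0.554 and *Atp2b2* at 0.625, PMCA pumps best known from brain and other excitable tissue, and the sodium-calcium exchanger *Slc8a3* at 0.831. It was 3 of 5 in mitochondrial uptake, with the outer-membrane channel *Vdac1* at 2.94, and 2 of 4 among other channels, *Trpm7* at 3.41 and *P2rx1* at 3.26. The calcium-binding proteins and chaperones had 5 of 7, including the calmodulin genes *Calm2* at 4.92 and *Calm3* at 3.96. *Calm2* also had 7.004-fold RUNX1, from 32 RUNX1 and 25 input reads, above every one of the 10 calcium store and entry genes. Input was sparse at *Calm2* and *Trpm7*, at 0.537 of its genome-wide rate in both. Against the genome-wide rate of the same library, *Calm2* was at 3.76 for RUNX1 and at 2.64 for FLI1, where *Calm3* was at 3.57 and *P2rx1* at 3.93 for FLI1, and FLI1 at *Trpm7* was 1.83, under 2-fold.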

How the data were processed

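One ChIP-seq library each of FLI1, RUNX1 and input from mature megakaryocytes was used. The deposited values are read positions and strands: per the labels, alignment by the authors was to mm9, and the methods give Bowtie at its default settings, after which reads with a unique position were kept once each. SICER and MACS are named in the submitters' processing notes, and no peak file was used here. Of reads compared with the mm9 sequence, 96.4% (FLI1) and 96.5% (RUNX1) had at most 2 mismatches. Reads are 50 bp for FLI1 and RUNX1 and 34 bp for input.

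Chromosomes 1 to 19, X and Y were used, and repeated positions, which only the input file held, were counted once (22472969 to 21745220 reads). The 5′ end of each read was moved 75 bp inwards. Ratios were scaled by library depth, with exact 95% binomial intervals conditional on the summed counts. They cover counting error only, and reads are not independent molecules. With 1 library per antibody no test was made. Bins were called as stated in the report with an effective genome of 1.87e9 bp. Summits are the highest pile-up of reads extended to 150 bp. Base composition was taken within 500 bp of the start. Percentiles of territory ratios are among all protein-coding genes with input reads in their territory.

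The genes, lists and rules were chosen with earlier results of these data known. All 10 genes are named, with the 6 highest and 4 lowest FLI1 ratios among the 41 other calcium genes, markers, and genes whose starts lie within 2 kb of an enriched bin. *Kdm2b*, as the gene annotated around a bin, *Morn3* where a bin lay further than 2 kb from its start, and the highest and lowest megakaryocyte markers were named after their values were seen. Alternatives were the read shift, a 1-kb window, all starts, repeated input positions, scaling on the 50% of 10-kb bins with the fewest reads, the genome-wide rate, the plus strand, FLI1 thinned to RUNX1 depth, bin thresholds of 2 and 5, a grid moved by 200 bp, the genome-wide rate alone for bins, bins of input above 10 times the rate left out, 50-kb flanks and at least 7 RUNX1 reads. The scripts were tested on simulated data. Python 3.11.15, numpy 2.4.6, scipy 1.17.1, pandas 2.3.3, pysam 0.24.0, samtools 1.23.1 and matplotlib 3.10.9 were used.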

Additional observations from a re-analysis of the deposited data

How the results depend on the processing

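No paired analysis was possible because each antibody has 1 library and the labels carry no replicate numbers. The FLI1 ratio over the 10 summed start windows, 2.51, was 3.43 in 1-kb windows, 2.02 over all annotated starts, 2.26 with scaling on the 50% of 10-kb bins with the fewest reads and 2.18 against the genome-wide rate. The RUNX1 ratio, 2.07, was 2.69 in 1-kb windows, 1.66 over all starts and 1.80 against the genome-wide rate. At 2-fold RUNX1 there were 8 genes in 1-kb windows, beside 29.0% of all genes, and 3 over all starts, instead of 4. Over all starts *Itpr2* was at 1.72 for RUNX1 and 1.41 for FLI1, and the share of all genes was not computed. From 6 to 9 genes reached 2-fold FLI1 over the alternatives tried, beside 17.1% to 36.9% of all genes where that share was computed. The FLI1 ratio over all territories, 1.04, was 0.938 with that scaling, so whether whole territories lie above or below input depended on the scaling. FLI1 bins numbered 109 at a threshold of 2 (2.38%, beside 1.29% in all territories) and 27 at 5 (0.590%, beside 0.273%), instead of 57. At 5, 5 bins were enriched for both factors (0.109%, beside 0.0382%), instead of 9. With at least 7 RUNX1 reads, 5 bins were enriched for RUNX1 (0.109%, beside 0.0477%), instead of 30, and 3 for both (0.0655%, beside 0.0227%). Leaving out bins at the starts of other genes, an alternative chosen after seeing the data, gave 50 FLI1 bins, 26 RUNX1 bins and 8 bins for both. The share of all territory bins was not computed for it, so these counts cannot be set beside that of all genes. Of 160 values for single genes under the alternatives, 144 stayed within their counting interval and 16 moved outside it. The 1-kb window moved 8 of 30 values, and all starts and the genome-wide rate moved 3 of 20 each. Thinning moved 2 of 10. The read shift (30 values), repeated input positions (20), scaling (20) and the plus strand (10) moved 0. Several of these could change the counts or the scale only a little, so the 144 do not measure stability. The causes of these shifts were not tested. RUNX1 depth limits single bins to a few reads, and the absence of a RUNX1 call at a FLI1 bin says only that RUNX1 was not detectable at this depth.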
